A study of Mus musculus with 47 samples.

Results

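The 8 genes described here are the Cadm and nectin families of cell adhesion molecules in differentiating mouse muscle cells: Cadm1, Cadm2, Cadm3 and Cadm4, and Nectin1, Nectin2, Nectin3 and Nectin4. They were chosen by gene symbol alone, as every mouse gene of the 2 family names, and they are 8 of the 45706 genes in the deposited tables. The symbols follow the family names and not a threshold on any value.

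Cadm and nectin proteins are close relatives within the immunoglobulin superfamily. Each spans the membrane with 3 immunoglobulin-like domains outside the cell and a short tail inside, and each holds cells together without calcium by binding a partner of its own family, or of the other family members, on the next cell. Nectins often sit beside cadherins: they make early contacts, bind best between unlike members such as nectin-2 or nectin-1 with nectin-3, and reach the actin cytoskeleton through afadin, which Afdn encodes. Cadm proteins bind instead through tail motifs to band 4.1 proteins and to membrane-associated guanylate kinases of the Mpp family. In muscle, myoblasts leave the cell cycle, adhere to each other and fuse into multinucleate myotubes, and adhesion molecules of the cadherin and immunoglobulin classes act at those contacts.

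The study raised the dose of the muscle transcription factor MyoD1, or of a single adhesion molecule, in C2C12 cells and asked how the cells' fate and gene expression followed. C2C12 is an established mouse myoblast line that differentiates when serum is withdrawn. PolyA RNA was sequenced in 47 libraries from 16 groups, 15 of them with 3 replicates and 1 with 2, which the labels call biological replicates. Levels are given as CPM, counts relative to a library's total, with TMM scaling factors over all 47 libraries.

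The iMyoD1 line has the genotype label "endogenous MyoD1 + dox-inducible Halo-MyoD1". It was sampled at 0 h in growth medium and after 24, 48 and 120 h of serum starvation, each time with doxycycline (dox) at 1 µg/mL or with vehicle. Dox or vehicle was given for 24 h in the 0 h and 24 h groups, for 48 h in the 48 h groups and for 120 h in the 120 h groups. At 120 h there were whole cultures, a myoblast-enriched fraction that passed a 40 µm strainer and a myotube-enriched fraction that stayed on it. The labels give the other lines as "inducible Cdh23" (iCdh23) and "inducible Mcam" (iMcam), each at 48 h of serum starvation with 48 h of dox or vehicle; Cdh23 is a cadherin and Mcam an immunoglobulin-like adhesion molecule. The myoblast-enriched fraction with dox has 2 libraries, numbered 2 and 3.

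These groups have limits as models. The transgenes sit at random places in cell pools, under a promoter that dox switches on, and no library came from cells without a transgene, so effects of dox itself and of the induced protein cannot be told apart. The libraries lie in 3 deposited tables: the iMyoD1 line at 0 h and 24 h; that line at 48 h and in whole 120 h cultures; and the iCdh23 line, the iMcam line and the fractions. Libraries from 48 h on carry a batch label and those of 0 h and 24 h carry none, so batch and time cannot be told apart between 24 h and 48 h. By the paper's methods, differentiating cultures were seeded with more cells than undifferentiated ones. Seeding number, medium and differentiation therefore cannot be told apart between 0 h and 24 h. Differences between tables cannot be told apart from the line between iMyoD1 and the others, or from enrichment between whole cultures and fractions, and orders of levels cross the tables too. The paper reports that only a part of the nuclei in the iMyoD1 pool expressed Halo-MyoD1 with dox, so the values are averages over mixed cultures. In a separate line with tagged endogenous MyoD1, it reports nuclear levels back near the endogenous ones by 48 h. In bulk RNA, fewer cells of a type and less RNA per cell cannot be told apart.

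In GRCm38 coordinates, Cadm1 (ENSMUSG00000032076) lies at chr9:47530173-47857637, Cadm2 (ENSMUSG00000064115) at chr16:66655421-67620908, Cadm3 (ENSMUSG00000005338) at chr1:173333258-173367695 and Cadm4 (ENSMUSG00000054793) at chr7:24482023-24504539. Nectin1 (ENSMUSG00000032012) lies at chr9:43743984-43807461, Nectin2 (ENSMUSG00000062300) at chr7:19716644-19750483, Nectin3 (ENSMUSG00000022656) at chr16:46387706-46498525 and Nectin4 (ENSMUSG00000006411) at chr1:171370099-171388598. The library totals ran from 15066338 to 50950674 counts, with a median of 22837926. Summed over the 47 libraries, the members held from 115 counts (Cadm2) to 50700 counts (Cadm1). Cadm2 was at or under a floor of 3 counts in 34 of 47 libraries and Nectin4 in 20 of 47, so these genes are close to the limit of detection and the other 6 carry the results. Exons of Nectin2 share 135 bp with Gm20512 on the opposite strand, which held 527 counts against 33914 for Nectin2, and exons of Cadm3 share 361 bp with Ackr1, which held 143 counts against 4809. The library kit kept no strand, so reads from the stretch shared with Gm20512 are uncertain. Ackr1 lies on the same strand as Cadm3, so reads from their shared stretch are uncertain whatever the kit.

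The genes named in the lines were looked at as a check of the labels. Mcam in the iMcam line stood at 19.8, 17.1 and 17.3 CPM without dox and at 69.0, 70.2 and 74.7 CPM with dox. Mcam was higher with dox in lines that carry no Mcam transgene by label as well (means of 6.28 and 49.1 CPM in iCdh23 cells, 2.53 and 16.9 CPM in the iMyoD1 line at 24 h, and 1.87 and 33.6 CPM in its whole 120 h cultures), so this difference does not identify the transgene. Cdh23 in the iCdh23 line stood at 369.6, 347.7 and 450.6 CPM without dox and at 568.1, 425.7 and 464.2 CPM with dox. These ranges overlapped in CPM, though not per length (89.1, 79.3 and 101.5 TPM without and 188.7, 134.7 and 145.8 TPM with dox), and the CPM difference of 0.32 on the log2 scale did not pass edgeR's quasi-likelihood test with Benjamini-Hochberg adjustment (adjusted p = 0.102). In the iMcam line without dox, Cdh23 stood between 5.61 and 8.86 CPM, so the iCdh23 line carried a high Cdh23 level in every library, dox or not. Myod1 was lower with dox in the iMyoD1 line at 24 h in CPM (138.8, 134.8 and 130.2 CPM without, 124.0, 116.4 and 110.7 CPM with dox), while per length the ranges overlapped (125.0, 113.5 and 105.5 TPM without, 131.0, 123.8 and 115.6 TPM with dox). It was lower at 48 h (means of 387.6 and 305.9 CPM) and in whole 120 h cultures (279.9 and 92.0 CPM) as well. At 0 h it was higher with dox per length, without overlap (183.8, 174.7 and 186.3 TPM without, 232.7, 206.4 and 214.6 TPM with dox), while in CPM the ranges overlapped (181.4, 170.9 and 180.3 CPM without, 197.1, 178.0 and 189.2 CPM with dox). Counts per length (TPM) were scaled to the same sum in every library without TMM factors, so they can differ from CPM by scaling. Cadm4, with 1 transcript, had means at 0 h of 9.64 CPM without and 30.5 CPM with dox, but of 8.49 and 30.5 TPM. Gaps between CPM and TPM are therefore not read as a property of a gene. Whether transgene reads enter the deposited counts is not stated.

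In the myotube-enriched fraction, 2 libraries went against their labels in a score of dox-responsive genes. A dox score was set for each library as the mean log2 CPM of the 996 genes, members aside, that passed 2-fold higher with dox in whole 120 h cultures minus that of the 1199 genes that were lower. Whole cultures scored between -3.31 and -3.12 without dox and between -0.32 and -0.22 with dox. In the myotube-enriched fraction, the libraries labelled no dox scored -2.08, -1.04 and -2.40, and those labelled dox scored -1.30, -2.67 and -0.89. The library labelled replicate 2 without dox therefore lay among the libraries labelled dox, and the library labelled replicate 2 with dox lay below every library labelled no dox in either fraction. Mcam, which is among the score's own genes, stood at 3.47, 16.2 and 3.08 CPM in the libraries labelled no dox and 12.4, 1.26 and 15.2 CPM in those labelled dox. Cdh23 stood at 18.4, 15.4 and 14.8 CPM and at 25.9, 14.5 and 28.3 CPM there, so by Cdh23 the dox library numbered 2 lay below its group and the one without dox did not lie above its own. The members' dox differences in this fraction are given with and without these libraries; group means, marker sums, likeness and orders of levels include them.

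**Figure D1:**
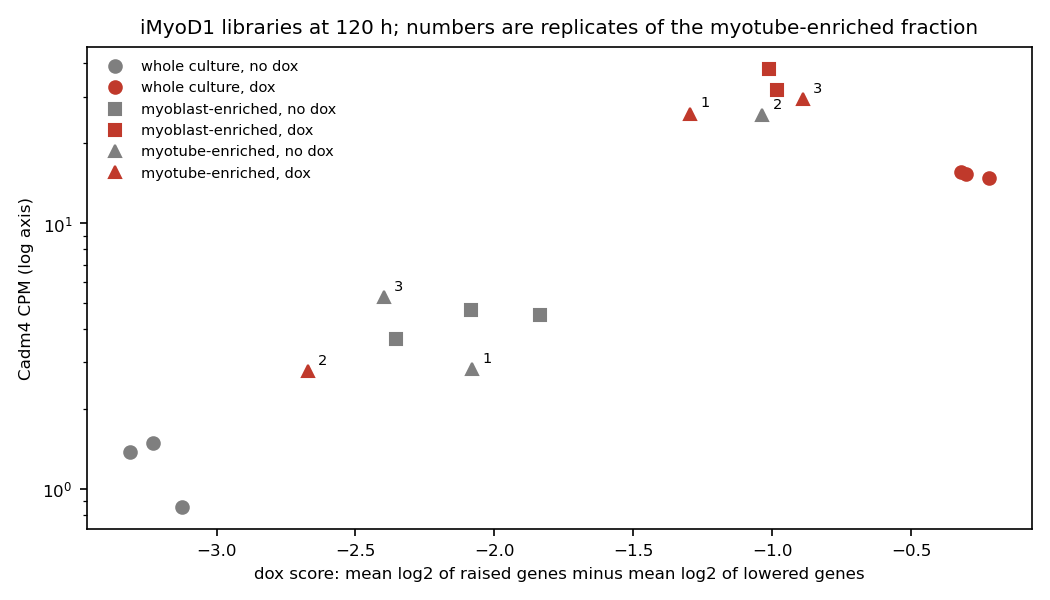
Cadm4 level (CPM, log axis) against the dox score (mean log2 CPM of genes higher with dox minus mean log2 CPM of genes lower with dox) for each iMyoD1 library at 120 h; circles are whole cultures, squares myoblast-enriched and triangles myotube-enriched fractions, grey without and red with dox. The triangles numbered 2 lie on the side of the other label: 25.6 CPM of Cadm4 in the library labelled no dox and 2.78 CPM in the library labelled dox.

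Marker genes give the cell type. The 10 myotube markers summed to between 1.55 and 2.55 CPM in 0 h cultures without dox and to 14146 CPM on average at 48 h. Markers of other cell types that use Cadm or nectin genes had these sums: 4 neuronal markers summed to at most 50.2 CPM in any library (most abundant Tubb3), 4 epithelial markers to at most 41.0 CPM (Krt14), 4 endothelial markers to at most 1.46 CPM (Tek) and 4 immune markers to at most 5.93 CPM (Itgam). The sums moved between groups: neuronal markers from a mean of 38.2 CPM at 24 h to 10.9 CPM at 48 h without dox in the iMyoD1 line, and from 40.9 to 9.38 CPM with dox in iMcam cells; epithelial markers from 38.0 to 14.9 CPM with dox at 0 h; and immune markers from 0.832 to 4.23 CPM with dox in whole 120 h cultures. Of these 16 markers, 1 immune marker was at 0 in every library.

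Per length, the order of the members changed with dox. Levels of different genes are compared here as TPM, counts per transcript length, scaled to the same sum in every library. In iMyoD1 cultures at 24 h without dox, Nectin3 led at 25.3 TPM, Cadm1 followed at 14.5 TPM, Cadm3 at 10.8 TPM and Nectin2 at 9.00 TPM, and Cadm4 was at 2.81 TPM. With dox at 24 h, Cadm4 (27.95 TPM) and Nectin2 (27.6 TPM) led, ahead of Nectin3 (21.4 TPM) and Cadm1 (9.73 TPM). In the iCdh23 line with dox, Cadm4 reached 144.4 TPM, 55.3% of the summed TPM of all 8 genes, and Nectin2 68.6 TPM, 26.3% of it. Nectin1 and Cadm3 were lower in most groups, and Cadm2 and Nectin4 were the lowest throughout the groups named here.

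**Figure D2:**
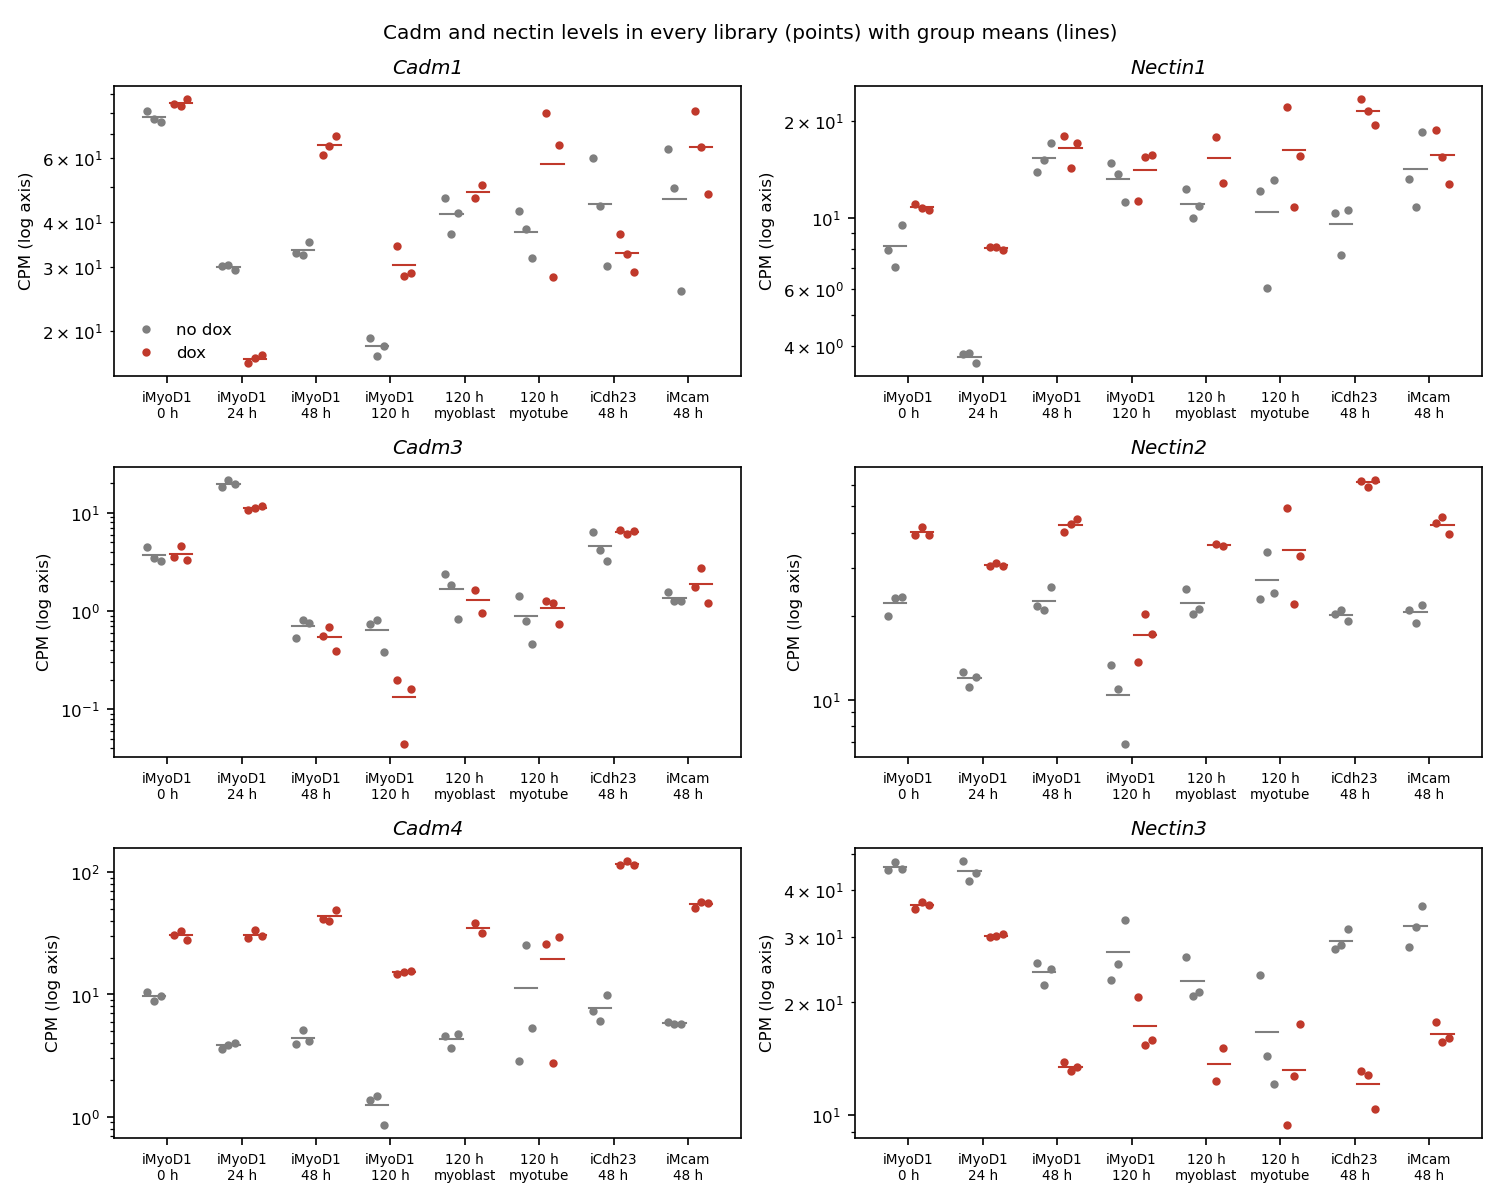
Level (CPM, log axis) of 6 members in every library (points) with group means (lines), by line, time and fraction, grey without and red with dox. Cadm4 with dox lies between 14.8 and 122.6 CPM in every group except the myotube-enriched fraction, where labels and levels cross.

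How the families moved with dox was counted first. A gene passed at an adjusted p under 0.05 from edgeR's quasi-likelihood test with Benjamini-Hochberg adjustment over all genes tested, and 2-fold changes were counted separately. In the iMyoD1 line at 0 h, 4 of the 6 members tested passed (3 higher and 1 lower with dox), against 37.8% of all genes, and 1 passed with a 2-fold change, against 4.27%. At 24 h, 7 of 7 passed (4 higher, 3 lower), against 62.8%, and 4 with a 2-fold change, all higher, against 13.1%. At 48 h, 4 of 6 passed (3 higher, 1 lower), against 56.6%, and 1 with a 2-fold change, against 14.4%. In whole 120 h cultures, 4 of 5 passed (3 higher, 1 lower), against 45.2%, and 1 with a 2-fold change, against 16.1%. Dox thus left Cadm4 and Nectin2 higher and Nectin3 lower at each of these 4 times, while much of the transcriptome also differed.

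In the other groups the counts varied widely. Of 6 members tested in the myoblast-enriched fraction at 120 h, 2 passed, both higher with dox, against 4.34% of all genes, and 1 with a 2-fold change, against 3.03%. That count was 0 without the library labelled replicate 2 with dox or replicate 3 without dox, and 1 without replicate 3 with dox or replicate 2 without dox. The count of all genes in the myoblast-enriched fraction moved widely too. It was 619 in the main fit, 4051 with the replicate number as a block and 0 without replicate 3 without dox. In the myotube-enriched fraction, edgeR passed 0 of 6 members and 0% of all genes, also 0% with a 2-fold change. There, 0 members and 79 genes had an unadjusted p under 0.05, and DESeq2 passed 0 members and 2 genes. Without both libraries numbered 2, an alternative chosen after seeing the data, 0 members passed there. In the iCdh23 line, 5 of 7 passed (4 higher, 1 lower), against 63.8%, and the same count of 5 with a 2-fold change, against 30.0%. In the iMcam line, 3 of 6 passed (2 higher, 1 lower), against 49.0%, and 2 with a 2-fold change, both higher, against 16.8%. The members' shares past the adjusted p alone are near the background in several of these comparisons, so what stands out is single genes and their direction. Nectin4 entered the tests at 24 h and in iCdh23 cells through its high group, and without it 6 of 6 passed at 24 h (3 with a 2-fold change) and 4 of 6 in iCdh23 cells (all 4 with a 2-fold change).

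**Figure D3:**
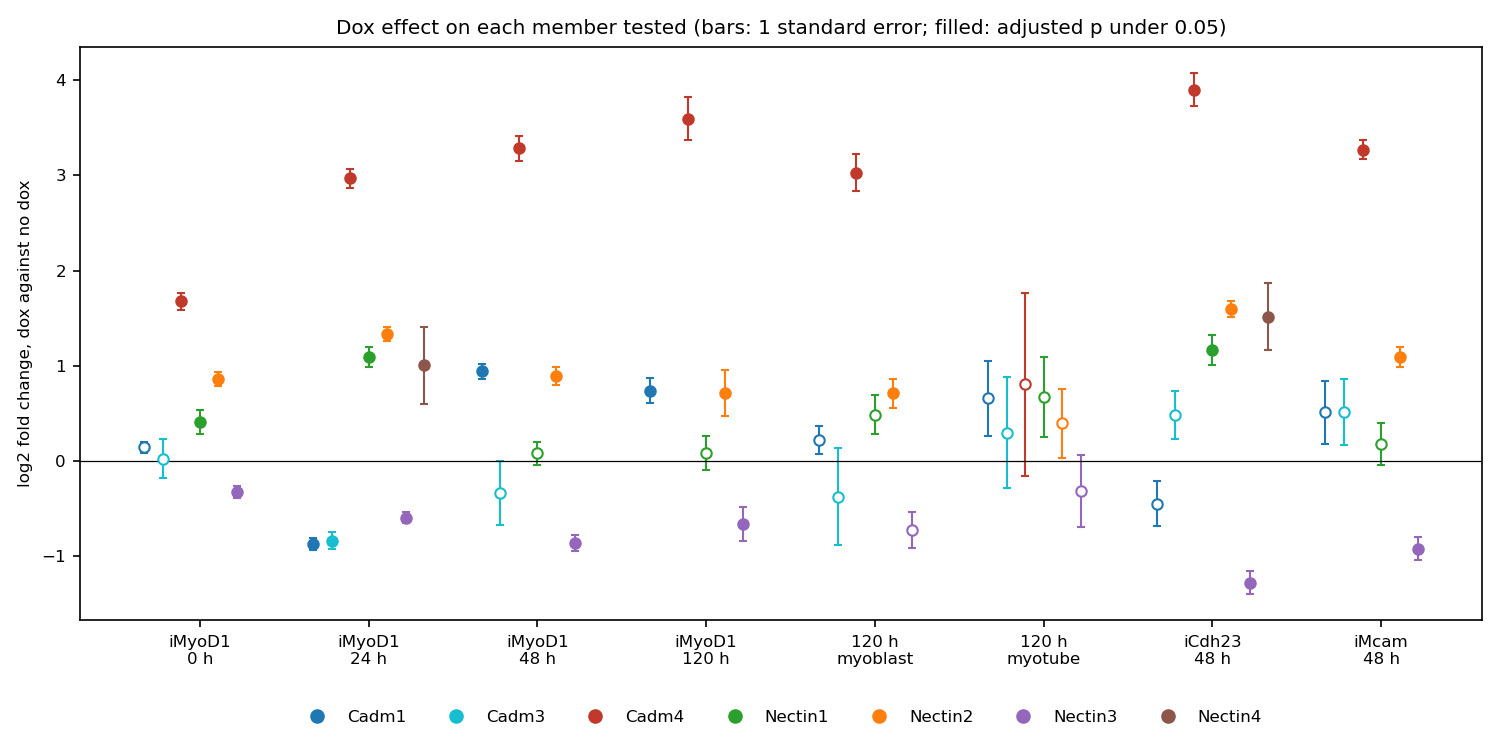
Dox effect (log2 fold change, dox against no dox) on each member tested in each line, time and fraction; bars are 1 standard error, and filled points passed at an adjusted p under 0.05. Cadm4 lies between 1.68 and 3.90 in every comparison except the myotube-enriched fraction (0.80), Nectin2 lies above 0 and Nectin3 below 0 throughout.

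Cadm4 had the largest log2 fold change with dox among the members in each comparison where it passed. Its protein binds other Cadm proteins on neighbouring cells and is known for contacts between Schwann cells and axons and for binding band 4.1 proteins. At 0 h, Cadm4 stood at 10.4, 8.90 and 9.63 CPM without dox and at 30.8, 32.7 and 28.1 CPM with dox. At 24 h, it stood at 3.61, 3.87 and 4.05 CPM without and at 29.0, 33.4 and 29.8 CPM with dox. The dox libraries were above the others at both times, and the dox level was near 30 CPM at each while the level without dox was lower at 24 h. The log2 fold change was 1.68 ± 0.0904 (SE, adjusted p = 1.32e-08, edgeR's quasi-likelihood test with Benjamini-Hochberg adjustment) at 0 h and 2.97 ± 0.0997 (adjusted p = 5.64e-10, same test) at 24 h. Cadm4 was picked by the study as an adhesion candidate from genes that rose with dox and were bound more by MyoD1, with the 24 h samples among its evidence, so the 24 h value is not independent evidence of a direction.

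The rise of Cadm4 was present in the samples that did not serve that choice. In the 48 h cultures, Cadm4 stood at 3.92, 5.09 and 4.15 CPM without dox and at 41.3, 39.5 and 49.2 CPM with dox. In whole 120 h cultures, it was at 1.38, 1.49 and 0.857 CPM without and at 14.8, 15.3 and 15.6 CPM with dox. No library without dox reached a library with dox in either group, and the level with dox at 120 h was lower than at 48 h. In edgeR's quasi-likelihood test with Benjamini-Hochberg adjustment, Cadm4 rose by 3.28 ± 0.133 at 48 h (adjusted p = 3.52e-08) and by 3.60 ± 0.228 at 120 h (adjusted p = 3.91e-06), both on the log2 scale. In the myoblast-enriched fraction, it was at 4.54, 3.66 and 4.74 CPM without and at 38.1 and 31.7 CPM with dox, a rise of 3.03 ± 0.193 (adjusted p = 0.00526, same test) that 2 of 2 dox libraries showed. Without replicate 2 of the dox libraries, Cadm4 had a log2 fold change of 2.88 (adjusted p = 0.0540), and without replicate 3 of the no-dox libraries 3.10 (adjusted p = 0.0579), where the smaller group is assumed to vary like the rest.

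Lines made to induce another adhesion molecule had more Cadm4 with dox too, though Cdh23 itself did not pass with dox in the iCdh23 line. In iCdh23 cultures, Cadm4 stood at 7.35, 6.07 and 9.84 CPM without dox and at 113.3, 122.6 and 113.2 CPM with dox. In iMcam cultures, it stood at 5.91, 5.78 and 5.72 CPM without and at 51.0, 57.2 and 55.4 CPM with dox. Groups were far apart in both lines, and the iCdh23 dox group had the highest Cadm4 level of all 16 groups (mean 116.4 CPM, 93.7 times the lowest mean, 1.24 CPM in whole 120 h cultures without dox). Cadm4 rose by 3.90 ± 0.174 in iCdh23 (adjusted p = 6.34e-06) and by 3.27 ± 0.0995 in iMcam cells (adjusted p = 2.47e-05) on the log2 scale, in edgeR's quasi-likelihood test with Benjamini-Hochberg adjustment.

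Differentiation markers moved with dox in both directions. In iCdh23 cultures, 10 of 10 myotube markers and 5 of 5 proliferation markers fell, and the myotube markers summed to 7560 CPM without and 73.95 CPM with dox (most abundant Acta1, at 2767 and 22.6 CPM). In iMcam cultures, 9 of 10 and 5 of 5 fell, with myotube marker sums of 6667 and 941.8 CPM. Of 5 myoblast markers, 4 fell in each of these lines, with sums of 1815 and 414.2 CPM in iCdh23 and 1596 and 592.5 CPM in iMcam cultures. In iMyoD1 cultures at 48 h, 10 of 10 myotube and 5 of 5 proliferation markers fell, with myotube marker sums of 14146 and 5565 CPM, and of 5 myoblast markers 1 rose and 3 fell. In whole 120 h cultures, 1 myotube marker rose and 6 fell (sums of 16686 and 11664 CPM), while 4 proliferation markers rose and 1 fell (sums of 253.0 and 427.1 CPM), and of 5 myoblast markers 1 rose and 1 fell. In the myoblast-enriched fraction, 2 of 10 myotube markers fell (sums of 8378 and 5385 CPM) and no myoblast or proliferation marker passed; in the myotube-enriched fraction none of the 3 lists had a marker that passed. At 0 h, 3 of 4 myotube markers tested rose (sums of 2.17 and 5.53 CPM), 4 of 5 proliferation markers fell, and of 5 myoblast markers 2 rose and 1 fell. At 24 h, the myotube markers summed to 13.2 CPM without and 13.3 CPM with dox, and 2 of 9 tested passed (1 higher, 1 lower). Of the other lists, 5 of 5 myoblast markers (3 higher, 2 lower) and 4 of 5 proliferation markers (1 higher, 3 lower) passed there. Their part in the members' differences was not tested.

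Nectin2 rose wherever Cadm4 did. Nectin-2 binds itself and nectin-3 across cell contacts and is also a ligand of immune receptors. At 0 h, Nectin2 stood at 20.1, 23.4 and 23.5 CPM without dox and at 39.5, 42.2 and 39.5 CPM with dox. In the 24 h libraries it was at 12.6, 11.1 and 12.1 CPM without and 30.4, 31.2 and 30.5 CPM with dox. Dox libraries were the higher ones without overlap at both times, and replicates lay close together. The log2 fold change was 0.86 ± 0.0757 (adjusted p = 1.19e-06) at 0 h and 1.34 ± 0.0734 (adjusted p = 2.12e-08) at 24 h by edgeR's quasi-likelihood test with Benjamini-Hochberg adjustment.

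Later and in the other lines, Nectin2 kept that direction. At 48 h it stood at 21.7, 21.1 and 25.7 CPM without and at 40.3, 43.2 and 45.1 CPM with dox, a log2 fold change of 0.89 ± 0.0936 (adjusted p = 1.71e-05, edgeR's quasi-likelihood test with Benjamini-Hochberg adjustment). The iCdh23 libraries held 20.3, 21.2 and 19.2 CPM without and 62.0, 59.0 and 62.2 CPM with dox (1.59 ± 0.0830, adjusted p = 7.85e-06). The iMcam libraries held 21.1, 18.9 and 22.0 CPM without and 43.7, 45.7 and 39.7 CPM with dox (1.09 ± 0.104, adjusted p = 0.000329). No ranges overlapped in these 3 comparisons. In whole 120 h cultures the groups nearly met, at 13.3, 10.9 and 6.90 CPM without and 13.7, 20.4 and 17.3 CPM with dox (0.71 ± 0.243, adjusted p = 0.0385). That Nectin2 call ended without replicate 2 or 3 of the dox libraries (0.56 and 0.70, adjusted p = 0.143 and 0.0968), without replicate 2 or 3 of the no-dox libraries (0.74 and 0.48, adjusted p = 0.0958 and 0.0556), and with the replicate number as a block (0.74, adjusted p = 0.0547). Whole 120 h cultures then kept 2 passing members without replicate 2 or without replicate 3 of the dox libraries.

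The myoblast-enriched fraction gave Nectin2 at 25.1, 20.5 and 21.3 CPM without and at 36.5 and 36.0 CPM with dox. Both dox libraries were above the 3 others, with a log2 fold change of 0.71 ± 0.151 (adjusted p = 0.0468 by edgeR's quasi-likelihood test with Benjamini-Hochberg adjustment). The Nectin2 call ended without replicate 2 or 3 with dox (0.69 and 0.73, adjusted p = 0.273 and 0.147) and without replicate 2 or 3 without dox (0.65 and 0.68, adjusted p = 0.0592 and 0.190).

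Nectin3 went the other way. Nectin-3 is the partner that nectin-1 and nectin-2 bind most strongly. At 0 h, Nectin3 stood at 45.1, 47.5 and 45.5 CPM without dox and at 35.6, 37.2 and 36.4 CPM with dox. At 24 h it was at 47.7, 42.2 and 44.5 CPM without and 30.0, 30.2 and 30.4 CPM with dox. Dox libraries were the lower ones with no overlap, at both times. It fell by 0.33 ± 0.0614 at 0 h (adjusted p = 0.000812) and by 0.59 ± 0.0582 at 24 h (adjusted p = 2.88e-06) on the log2 scale, by edgeR's quasi-likelihood test with Benjamini-Hochberg adjustment. Per length, the relative fall was smaller: means of 28.9 and 25.7 TPM at 0 h and of 25.3 and 21.4 TPM at 24 h. TPM carries no TMM factors, so this gap is not read as a property of Nectin3. In a fit with all 47 libraries the 0 h value was -0.34 (adjusted p = 0.313).

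The lower Nectin3 level held at later times. The 48 h libraries held 25.5, 22.3 and 24.6 CPM without and 13.9, 13.1 and 13.4 CPM with dox. In iCdh23 cultures Nectin3 was at 27.8, 28.6 and 31.5 CPM without and 13.1, 12.8 and 10.4 CPM with dox, and in iMcam cultures at 28.2, 31.8 and 36.2 CPM without and 17.7, 15.6 and 16.1 CPM with dox. Every dox library was below every library without dox in these 3 comparisons. The log2 fold changes were -0.86 ± 0.0853 (adjusted p = 1.11e-05) at 48 h, -1.28 ± 0.121 (adjusted p = 8.06e-05) in iCdh23 and -0.92 ± 0.118 (adjusted p = 0.000914) in iMcam cells, by edgeR's quasi-likelihood test with Benjamini-Hochberg adjustment. In whole 120 h cultures, Nectin3 stood at 23.0, 25.4 and 33.3 CPM without and 20.8, 15.4 and 15.8 CPM with dox (-0.66 ± 0.178, adjusted p = 0.0138). Per length, without TMM factors, these groups overlapped (13.8, 17.8 and 20.0 TPM without and 17.7, 11.7 and 15.3 TPM with dox). Without replicate 2 or 3 of those dox libraries the value was -0.60 or -0.61 (adjusted p = 0.0522 and 0.0542). In the myoblast-enriched fraction it stood at 26.5, 20.9 and 21.3 CPM without and 12.3 and 15.1 CPM with dox, a difference of -0.73 that did not pass (adjusted p = 0.0739) but passed by DESeq2 (adjusted p = 0.0142), without the low-count filter (0.0154), with all 47 libraries (0.0260) and with the replicate block (0.0120).

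Nectin1, the partner of nectin-3 at many heterotypic contacts, differed with dox early and in the iCdh23 line. At 0 h it was at 7.95, 7.05 and 9.48 CPM without and 11.1, 10.7 and 10.6 CPM with dox, and at 24 h at 3.78, 3.80 and 3.53 CPM without and 8.10, 8.14 and 7.93 CPM with dox. In iCdh23 cultures it was at 10.4, 7.67 and 10.6 CPM without and 23.4, 21.5 and 19.4 CPM with dox. Dox libraries were above the others in these 3 comparisons, with the narrowest gap at 0 h. Nectin1 rose by 0.41 ± 0.126 at 0 h (adjusted p = 0.0189), by 1.10 ± 0.105 at 24 h (adjusted p = 2.32e-06) and by 1.16 ± 0.155 in iCdh23 cells (adjusted p = 0.000443), by edgeR's quasi-likelihood test with Benjamini-Hochberg adjustment. The 0 h call ended without replicate 1 or 2 of the libraries without dox (0.39 and 0.31, adjusted p = 0.0580 and 0.0875) and in a fit with all 47 libraries (adjusted p = 0.374). It did not pass at 48 h in iMyoD1 (0.08, adjusted p = 0.596), in whole 120 h cultures (0.08, adjusted p = 0.736) or in iMcam cells (0.18, adjusted p = 0.522), and the libraries of both groups overlapped in each of these. In the myoblast-enriched fraction, the dox libraries lay above the others (means of 15.4 and 11.0 CPM). That Nectin1 difference of 0.49 ± 0.210 did not pass either (adjusted p = 0.226, edgeR's quasi-likelihood test with Benjamini-Hochberg adjustment). By the interaction test, the Nectin1 effect differed between 48 h and 24 h (-1.02, adjusted p = 0.000105) and between iCdh23 and iMyoD1 cells (1.10, adjusted p = 0.00102).

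Cadm1, an adhesion molecule of many tissues that also binds the immune receptor Crtam, changed sign between times. At 24 h it stood at 30.3, 30.5 and 29.5 CPM without dox and at 16.3, 16.8 and 17.1 CPM with dox. At 48 h it stood at 32.9, 32.5 and 35.1 CPM without and at 61.2, 65.0 and 69.1 CPM with dox, and in whole 120 h cultures at 19.1, 17.1 and 18.1 CPM without and 34.4, 28.3 and 28.8 CPM with dox. The dox libraries were below the others at 24 h and above them at 48 and 120 h, without overlap. By edgeR's quasi-likelihood test with Benjamini-Hochberg adjustment, Cadm1 fell by 0.87 ± 0.0638 at 24 h (adjusted p = 2.40e-07) and rose by 0.94 ± 0.0773 at 48 h (adjusted p = 2.64e-06) and by 0.74 ± 0.127 at 120 h (adjusted p = 0.00137). The difference between 48 h and 24 h was 1.81 ± 0.0938 (adjusted p = 9.90e-10, same test of the interaction), where batch and time cannot be told apart. The difference between 24 h and 0 h was -1.06 (adjusted p = 2.03e-08). At 0 h, Cadm1 did not pass (0.14, adjusted p = 0.0599) but passed without replicate 1 of the dox libraries (0.15, adjusted p = 0.0401).

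In the other lines, Cadm1 varied between replicates. The iCdh23 libraries held 60.2, 44.1 and 30.1 CPM without and 37.0, 32.5 and 29.1 CPM with dox, and the iMcam libraries 63.7, 49.7 and 25.7 CPM without and 80.8, 64.3 and 47.8 CPM with dox. The groups overlapped in both lines, and neither difference passed edgeR's quasi-likelihood test with Benjamini-Hochberg adjustment (-0.45, adjusted p = 0.129, and 0.51, adjusted p = 0.231). With the replicate number as a block, Cadm1 passed in both, at -0.40 (adjusted p = 0.0428) in iCdh23 and 0.57 (adjusted p = 0.00962) in iMcam cells. Per length, without TMM factors, the means in iCdh23 cells were 21.4 TPM without and 21.1 TPM with dox. Nectin1, with 1 transcript, also differed between the measures there, at means of 9.54 and 21.4 CPM but of 3.40 and 10.2 TPM. The gap between CPM and TPM is therefore not read as a property of Cadm1. In iMcam cells the means per length were 24.6 and 39.9 TPM. Libraries with the same number lay together in iMcam cells. In iCdh23 cells Cadm1 passed without replicate 3 of the libraries without dox (-0.68, adjusted p = 0.00509). The iCdh23 effect differed from that in iMyoD1 cells at 48 h (-1.38, adjusted p = 0.00146), and the iMcam effect did not pass against it (-0.44, adjusted p = 0.495).

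Cadm3, mainly a neuronal member, was highest at 24 h. It stood there at 18.3, 21.6 and 19.5 CPM without dox and at 10.8, 11.1 and 11.9 CPM with dox, and it fell by 0.84 ± 0.0902 on the log2 scale (adjusted p = 6.40e-06, edgeR's quasi-likelihood test with Benjamini-Hochberg adjustment). Every dox library was below every library without dox. No other dox comparison in which Cadm3 was tested passed. In whole 120 h cultures it was too sparse for a test, and its dox libraries lay below the others (means of 0.134 and 0.645 CPM). Against 24 h, the dox effect on Cadm3 differed at 0 h by the interaction test (24 h minus 0 h -0.91, adjusted p = 0.00136). The difference from 48 h did not pass (0.52, adjusted p = 0.128, same test). In iCdh23 cells it passed without replicate 1 of the libraries without dox (0.79 against 0.49 with all libraries, adjusted p = 0.00956 against 0.127). Cadm3 levels were between 0.393 and 0.803 CPM in the 48 h iMyoD1 libraries, and whole 120 h cultures with dox held 5, 1 and 4 counts.

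The sparse members give little. Nectin4, which binds nectin-1 and marks many epithelia, had 4, 10 and 10 counts at 24 h without dox and 20, 14 and 33 counts with dox, and in iCdh23 cells 5, 3 and 5 counts without and 14, 20 and 13 counts with dox. Nectin4 entered these tests through its dox group, where it is higher, so a difference was built in and the calls are no support. The values were, by edgeR's quasi-likelihood test with Benjamini-Hochberg adjustment, 1.00 ± 0.401 (adjusted p = 0.0454) and 1.51 ± 0.351 (adjusted p = 0.00663). The 24 h call for Nectin4 ended without any 1 of the 6 libraries (0.75 to 1.17, adjusted p = 0.0580 to 0.162), and over its 11 alternatives the adjusted p ran from 0.0447 to 0.348. The iCdh23 call held with each library left out but ended by DESeq2 (adjusted p = 0.0513) and in a fit with all 47 libraries (adjusted p = 0.103). Cadm2, a neuronal member, held at most 12 counts in any library and was in no test.

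Differences between dox effects were tested as interactions. Comparing 24 h with 0 h, 6 of 7 members passed, against 34.1% of all genes: the effects on Cadm4 (by 1.25), Nectin1 (by 0.64) and Nectin2 (by 0.43) were higher at 24 h, and those on Cadm1 (-1.06), Cadm3 (-0.91) and Nectin3 (-0.31) lower. Comparing 48 h with 24 h, 5 of 7 passed (4 of 6 without the sparse Nectin4), against 43.4%, and here Cadm4 did not (0.31, adjusted p = 0.174, edgeR's quasi-likelihood test with Benjamini-Hochberg adjustment). Between whole 120 h cultures and 48 h, edgeR passed 0 of 6 members, against 34.1%; 1 had an unadjusted p under 0.05 and DESeq2 passed 0. The Cadm3 interaction in that set passed without replicate 3 of the 120 h libraries without dox (-2.13, adjusted p = 0.0373, edgeR's quasi-likelihood test). Cadm3 was too sparse in whole 120 h cultures for a test of its own, with 1 to 5 counts per dox library. It entered this interaction through groups where it is higher, so the value is no support. For the iCdh23 line against iMyoD1 at 48 h, 6 of 7 passed (5 of 6 without Nectin4), against 35.8%; the effects on Nectin1 (1.10) and Nectin2 (0.72) were higher in iCdh23 and that on Cadm1 lower (-1.38). For iMcam against iMyoD1, edgeR passed 0 of 6, against 6.41%, with 0 at an unadjusted p under 0.05 and 0 by DESeq2. For iMcam against iCdh23, 2 of 7 passed, against 10.6%, a count that was 0 without replicate 3 of the iMcam dox libraries or replicate 1 or 3 of the iCdh23 dox libraries. With the replicate number as a block, which pairs libraries in iMcam cells, 4 passed, adding Cadm1 (0.93, adjusted p = 0.0105) and Cadm4 (-0.66, adjusted p = 0.0443).

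Lines were also compared gene by gene. The interaction of Cadm4 between iCdh23 and iMyoD1 was 0.63 ± 0.223 (adjusted p = 0.0417, edgeR's quasi-likelihood test with Benjamini-Hochberg adjustment), and it ended in 9 of 12 fits that left out a library (0.48 to 0.67, adjusted p = 0.0674 to 0.134). It held without replicate 3 of the iCdh23 libraries without dox, replicate 3 of the iMyoD1 dox libraries or replicate 1 of those without dox. That of Nectin3 was -0.40 ± 0.142 (adjusted p = 0.0422), and it held only without replicate 1 or 2 of the iCdh23 dox libraries or replicate 1 of those without dox. In the 9 other fits of this kind it was -0.45 to -0.33 (adjusted p = 0.0506 to 0.105), and with RLE scaling -0.36 (adjusted p = 0.0678). The Cadm3 interaction of these lines (0.84, adjusted p = 0.134) passed without replicate 1 of the iCdh23 libraries without dox (1.15, adjusted p = 0.0246). Between iMcam and iMyoD1, the Cadm4 effects differed by -0.02 ± 0.168 (adjusted p = 0.960). Between iMcam and iCdh23, they differed by -0.65 (adjusted p = 0.0571), which passed by DESeq2 (-0.66, adjusted p = 0.0170), with the block (adjusted p = 0.0443) and without replicate 3 of the iCdh23 libraries without dox (-0.86, adjusted p = 0.00322). The comparisons with iMyoD1 use the same iMyoD1 libraries.

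Nectin2 also changed in its transcripts. The deposited table holds 2 Nectin2 transcripts: Nectin2-201, with 9 coding exons and 530 codons, and a shorter form with 6 coding exons and 467 codons. They share 5 coding exons exactly, 338 codons, and then part. As background, the splice forms of nectin-2 share the part outside the cell and differ in the membrane-spanning and inner end. The share of Nectin2-201 in the counts of the gene is a description, given with no test, since salmon's split between transcripts has an error that the deposited tables do not give.

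Nectin2-201 gained share with dox. At 0 h its share was 25.4, 33.0 and 22.1% without and 41.0, 39.2 and 38.6% with dox. At 24 h it was 23.8, 27.9 and 23.4% without and 36.5, 34.5 and 41.2% with dox, and at 48 h 27.0, 22.5 and 17.1% without and 44.5, 42.6 and 43.8% with dox. Libraries with dox had the higher share in each, without overlap. In iCdh23 cells the share was 37.1, 30.4 and 33.6% without and 65.2, 62.1 and 64.7% with dox, and in iMcam cells 37.6, 36.1 and 26.6% without and 63.2, 61.8 and 61.1% with dox. So in both of these lines the minor transcript without dox was the major transcript with dox. In the myoblast-enriched fraction it was 26.5, 21.7 and 26.2% without and 44.6 and 42.7% with dox.

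Transcript shares were also counted over other genes, after the Nectin2 values had been seen. A leading transcript whose share did not overlap between the groups, with means over 10 percentage points apart, was counted over genes with a mean of at least 50 counts. Nectin2 met this rule at 0 h, where 3.78% of 8369 genes did, at 24 h (4.50% of genes), at 48 h (8.03%), in the myoblast-enriched fraction (4.77%), in iCdh23 (11.0%) and in iMcam cells (6.86%). It did not in whole 120 h cultures (7.82% of genes), where the mean share was 34.2% without and 43.4% with dox and the groups overlapped. Nor did it in the myotube-enriched fraction (3.83%), with mean shares of 23.7% and 32.2%; its shares were 18.6, 30.0 and 22.5% in the libraries labelled no dox and 28.0, 23.9 and 44.8% in those labelled dox, and without the libraries numbered 2 the groups do not overlap. The libraries numbered 2 were singled out by dox-responsive genes, so that separation without them is no support. The difference of the means was between 12.4 percentage points at 24 h and 30.3 in iCdh23 cells where the rule was met. These shares, like those of Cadm1, were chosen for description after their values were seen.

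**Figure D4:**
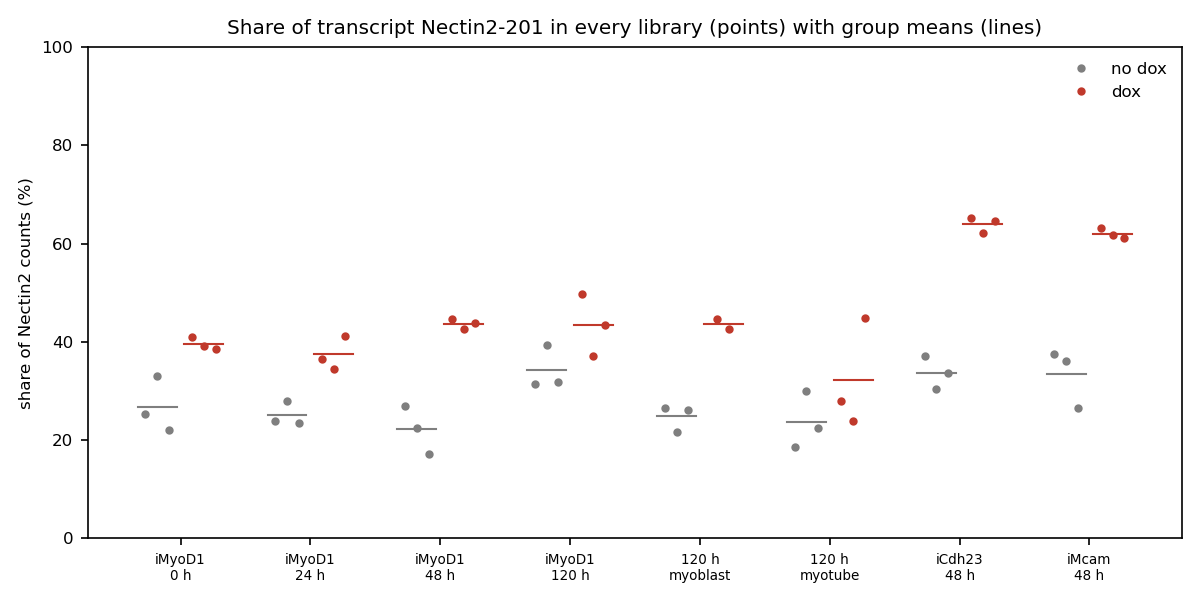
Share of transcript Nectin2-201 in the counts of Nectin2 (%) in every library (points) with group means (lines), by line, time and fraction, grey without and red with dox. With dox the share lies between 61.1 and 65.2% in iCdh23 and iMcam cells, and without dox between 26.6 and 37.6%.

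Among the Cadm genes, Cadm1-203 was the leading Cadm1 transcript, with mean shares of 86.1% at 0 h without dox and 94.1% at 48 h without dox, and Cadm4 has 1 transcript in the table.

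Levels also differed over time without dox, where seeding number and medium differ between 0 h and 24 h as well. Here 5 of 6 members tested passed between 0 h and 24 h (1 higher, 4 lower at 24 h), against 74.3% of all genes, and 4 with a 2-fold change (1 higher, 3 lower), against 26.1%. The first count is near the share of all genes. Cadm1 went from 80.7, 77.1 and 75.4 CPM to 30.3, 30.5 and 29.5 CPM, and Cadm4 from 10.4, 8.90 and 9.63 CPM to 3.61, 3.87 and 4.05 CPM. Cadm3 rose from 4.54, 3.50 and 3.24 CPM to 18.3, 21.6 and 19.5 CPM. Each of these moved without overlap. By edgeR's quasi-likelihood test with Benjamini-Hochberg adjustment the log2 fold changes were -1.33 ± 0.0594 for Cadm1 (adjusted p = 1.30e-10), -1.29 ± 0.130 for Cadm4 (adjusted p = 6.95e-07), 2.44 ± 0.136 for Cadm3 (adjusted p = 1.29e-09), -1.10 ± 0.147 for Nectin1 (adjusted p = 1.10e-05) and -0.87 ± 0.0976 for Nectin2 (adjusted p = 2.04e-06). Nectin3 did not pass (-0.01, adjusted p = 0.945), at 45.1, 47.5 and 45.5 CPM and then 47.7, 42.2 and 44.5 CPM.

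From 24 h to 48 h, nectins rose or fell in different directions, where the batch label and the deposited table change as well. Here 5 of 6 members passed (3 higher, 2 lower at 48 h), against 76.8% of all genes, and 2 with a 2-fold change, against 30.4%. Nectin1 rose from 3.78, 3.80 and 3.53 CPM to 13.9, 15.1 and 17.1 CPM (2.06 ± 0.125, adjusted p = 5.06e-09), and Cadm3 fell from 18.3, 21.6 and 19.5 CPM to 0.535, 0.803 and 0.759 CPM (-4.79 ± 0.166, adjusted p = 1.34e-11, edgeR's quasi-likelihood test with Benjamini-Hochberg adjustment). Nectin2 rose by 0.94 (adjusted p = 1.66e-06) and Nectin3 fell by 0.88 (adjusted p = 1.42e-07), while Cadm4 did not pass (0.19, adjusted p = 0.291). The Cadm1 value of 0.16 (adjusted p = 0.0391) did not pass in 9 of 11 alternatives, 5 of them leaving out a library: replicate 1 or 3 at 48 h (0.18 and 0.13) or replicate 1, 2 or 3 at 24 h (0.16, 0.17 and 0.14), with adjusted p from 0.0528 to 0.125.

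Between 48 h and 120 h, the whole cultures without dox had lower levels of several members. Of 6 tested, 3 passed, all lower at 120 h, against 67.1% of all genes, and 2 with a 2-fold change, against 29.8%. Cadm4 went from 3.92, 5.09 and 4.15 CPM to 1.38, 1.49 and 0.857 CPM, and Nectin2 from 21.7, 21.1 and 25.7 CPM to 13.3, 10.9 and 6.90 CPM. Neither overlapped between the times. The log2 fold changes were -1.79 ± 0.264 for Cadm4 (adjusted p = 0.000284), -1.12 ± 0.210 for Nectin2 (adjusted p = 0.00118) and -0.87 ± 0.0965 for Cadm1 (adjusted p = 5.09e-05) by edgeR's quasi-likelihood test with Benjamini-Hochberg adjustment. Without replicate 3 at 120 h the Nectin2 value was -0.90, under a 2-fold change, which left 1 member past it.

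The fractions tell myotubes from mononucleate cells by size. The myotube-enriched fraction without dox summed to 17544 CPM over the 10 myotube markers and the myoblast-enriched fraction to 8378 CPM, and 2 of 10 of these markers passed, both higher in the myotube-enriched fraction. Of 6 members tested without dox, edgeR passed 0, against 0.592% of all genes (0.585% with a 2-fold change); 0 had an unadjusted p under 0.05 and DESeq2 passed 0. With dox, 0 of 6 passed, against 0% of all genes, also 0% with a 2-fold change, where 0 members and 183 genes had an unadjusted p under 0.05 and DESeq2 passed 0 members and 9 genes. The interaction of dox and fraction passed 0 of 7 members, against 0% of all genes, where 0 members and 218 genes had an unadjusted p under 0.05 and DESeq2 passed 0 members and 2 genes. Without both libraries numbered 2 of the myotube-enriched fraction, 0 members passed in each of these.

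Cadm4 shows how the labels bear on this. In the myotube-enriched fraction it stood at 2.84, 25.6 and 5.28 CPM in the libraries labelled no dox and at 25.9, 2.78 and 29.3 CPM in those labelled dox. Each group holds 1 library at the level of the other. The libraries numbered 2 were left out because dox-responsive genes ran against their labels. A shift of dox-responsive members toward the labels without those libraries was therefore built in and is no support. The dox difference was 0.80 ± 0.959 with all 6 libraries (adjusted p = 0.998, edgeR's quasi-likelihood test with Benjamini-Hochberg adjustment) and 2.80 (adjusted p = 0.347) without both libraries numbered 2. The difference between fractions without dox was 1.42 (adjusted p = 0.377) with all libraries and -0.07 (adjusted p = 0.946) without them, and that with dox was -0.84 and -0.33 (adjusted p = 1.00 for both). For Nectin2, the dox difference in this fraction was 0.39 with all libraries (adjusted p = 0.998) and 0.84 (adjusted p = 0.568) without them, and for Nectin3 -0.32 (adjusted p = 0.998) and -0.38 (adjusted p = 0.815). For Cadm1 it was 0.66 (adjusted p = 0.998) and 1.01 (adjusted p = 0.477), for Cadm3 0.30 (adjusted p = 0.998) and 0.13 (adjusted p = 0.960), and for Nectin1 0.67 (adjusted p = 0.998) and 0.62 (adjusted p = 0.654). For Nectin1 the difference between fractions without dox went from -0.06 (adjusted p = 0.932) to 0.21 (adjusted p = 0.665). The Cadm4 interaction of dox and fraction was -2.25 with all libraries and -0.26 without them, and neither passed (adjusted p = 1.00 for both). Between the fractions without dox, a block on the replicate number passed no member either.

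The partners inside the cell moved in part. On the Cadm side, 10 adaptors were listed: Epb41, Epb41l1, Epb41l2, Epb41l3, Mpp1, Mpp2, Mpp3, Pals2, Cask and Farp1. With dox, 4 passed higher and 3 lower at 0 h (37.8% of all genes passed), 4 higher and 2 lower at 24 h (62.8%), 4 higher and 2 lower at 48 h (56.6%), 5 higher and 0 lower in whole 120 h cultures (45.2%), 4 higher and 5 lower in iCdh23 (63.8%) and 4 higher and 2 lower in iMcam cells (49.0%). Several of these counts are near the share of all genes. Epb41l1, a band 4.1 protein, rose by 1.49 ± 0.0918 at 48 h (28.2 to 80.2 CPM on average, adjusted p = 3.41e-07), by 1.68 ± 0.116 in whole 120 h cultures (adjusted p = 6.38e-06), by 1.45 ± 0.143 in iCdh23 (adjusted p = 9.78e-05) and by 1.21 ± 0.158 in iMcam cells (adjusted p = 0.000982), by edgeR's quasi-likelihood test with Benjamini-Hochberg adjustment. Mpp2, a guanylate kinase, rose by 2.27 ± 0.103 at 24 h (3.21 to 15.7 CPM, adjusted p = 4.75e-09), and Mpp3 rose by 3.29 ± 0.203 in whole 120 h cultures (2.55 to 25.2 CPM, adjusted p = 3.41e-06) and by 2.98 ± 0.567 in iCdh23 cells (adjusted p = 0.00262). Epb41 rose in 3 comparisons, by 1.22, 1.66 and 1.17 in whole 120 h cultures, iCdh23 and iMcam cells (adjusted p = 5.25e-05, 2.17e-05 and 0.000542).

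On the nectin side, 7 adaptors were listed, and single ones are described. With dox, 4 passed higher and 1 lower at 0 h (37.8% of all genes passed), and 4 higher and 0 lower at 24 h (62.8%). At 48 h, 0 were higher and 4 lower (56.6%), and in whole 120 h cultures 1 was higher and 3 lower (45.2%). In iCdh23 cells 2 were higher and 4 lower (63.8%), and in iMcam cells 1 higher and 2 lower (49.0%). Plekha7, which joins cadherin junctions to microtubules, fell by 1.89 ± 0.135 at 48 h (13.7 to 3.71 CPM, adjusted p = 9.89e-07), by 2.91 ± 0.191 in whole 120 h cultures (adjusted p = 4.64e-06) and by 2.12 ± 0.516 in iCdh23 cells (adjusted p = 0.00840), by edgeR's quasi-likelihood test with Benjamini-Hochberg adjustment. Ssx2ip, another afadin-binding protein, rose by 1.02 ± 0.118 in whole 120 h cultures (40.7 to 83.4 CPM, adjusted p = 0.000144). Lmo7, which binds afadin too, fell by 1.14 ± 0.0879 at 48 h (adjusted p = 1.65e-06) and by 2.04 ± 0.244 in iCdh23 cells (adjusted p = 0.000256). Afdn itself had means of 65.8 CPM without and 130.9 CPM with dox in iCdh23 cells, just under a 2-fold change (0.99, adjusted p = 3.57e-05). Of 5 related receptors listed (Pvr, Crtam, Cd226, Tigit and Cd96), Pvr, a relative of the nectins, was tested throughout. It fell by 1.46 in whole 120 h cultures, by 1.98 in iCdh23 and by 1.53 in iMcam cells (adjusted p = 2.47e-06, 0.000272 and 0.00303, same test). Pvr passed lower at 48 h too (-0.99), while at 24 h it did not pass (-0.13). At 0 h, 2 of these receptors were tested, and 1 passed higher and 1 lower.

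Without dox, the adaptors moved with time. Between 0 h and 24 h, 2 of 9 Cadm-side adaptors tested rose and 4 fell (74.3% of all genes passed). Mpp2 fell by 2.48 there (18.3 to 3.21 CPM) and Lmo7 by 1.57 (133.9 to 44.1 CPM). From 24 h to 48 h, 4 of 10 Cadm-side adaptors rose and 5 fell (76.8% of all genes passed), and on the nectin side Plekha7 rose by 3.96 (0.886 to 13.7 CPM). In whole cultures from 48 h to 120 h, 1 of 10 Cadm-side adaptors rose and 5 fell (67.1% of all genes passed), while on the nectin side Tjp1 rose by 1.27 (128.4 to 304.7 CPM).

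Across the 16 group means, genes of like pattern were sought for 6 members. Likeness was Pearson's r of log2(CPM + 0.5) over the 16 means, among 12085 genes, as a description of groups that share lines, times and tables. Cadm4 was most like Dtnb (0.988), Slc7a4 (0.977) and Gng7 (0.975), and Nectin2 most like Xylt2 (0.976), Rhof (0.974) and Atg16l2 (0.973). Nectin3 was most like 4930503L19Rik (0.944), Nup107 (0.943) and Lrrc59 (0.942), and Nectin1 like Pald1 (0.906), Lman2 (0.896) and Col8a2 (0.894). Cadm1 was most like Mgp (0.877), Cavin1 (0.874) and Rab7b (0.860), and Cadm3 like Srxn1 (0.947), Scoc (0.929) and Pip4p1 (0.919). Among the members, Cadm4 and Nectin2 were most alike (0.900), Nectin1 and Nectin3 most opposed (-0.756), and Cadm1 was little like Cadm3 (-0.131).

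Order of levels across the groups differed by member. Cadm4 was highest in iCdh23 cells with dox and lowest in whole 120 h cultures without dox. Nectin2 was also highest in iCdh23 cells with dox (61.1 CPM) and lowest in whole 120 h cultures without dox (10.4 CPM), and Nectin1 highest in iCdh23 cells with dox (21.4 CPM) and lowest at 24 h without dox (3.70 CPM). Nectin3 turned this round, highest at 0 h without dox (46.0 CPM) and lowest in iCdh23 cells with dox (12.1 CPM). Cadm1 was highest at 0 h with dox (85.2 CPM) and lowest at 24 h with dox (16.8 CPM), and Cadm3 highest at 24 h without dox (19.8 CPM).

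Promoters of 3 members are shown because Cadm4 and Nectin2 rose together with dox while Nectin3 fell. RefSeq's table gives 250 bases before to 50 after the start, on GRCm38.p6, for 6 of the 8 members: Cadm2, Cadm3, Cadm4, Nectin2, Nectin3 and Nectin4, and not for Cadm1 and Nectin1. The letters searched, on both strands, were CANNTG, the general form of the E-box that MyoD and its relatives bind, and within it CAGCTG and CACCTG. Of 32851 promoters, 72.3% hold CANNTG, 16.3% hold CAGCTG and 20.2% hold CACCTG. Cadm4 holds 1 CANNTG, as does Nectin2, and in both it is CACCTG read on the other strand; Nectin3 holds 0. Nectin4 holds 3, with 1 CAGCTG, Cadm2 holds 1 and Cadm3 holds 0. The windows are chr7:24481773-24482072 on the plus strand for Cadm4, chr7:19749524-19749823 on the minus strand for Nectin2 and chr16:46496918-46497217 on the minus strand for Nectin3, and capitals mark CANNTG. For Nectin2 and Nectin3, the window lies inside the gene position given above, and the upstream end of that position was not searched. A match is only a description of the letters.
Cadm4: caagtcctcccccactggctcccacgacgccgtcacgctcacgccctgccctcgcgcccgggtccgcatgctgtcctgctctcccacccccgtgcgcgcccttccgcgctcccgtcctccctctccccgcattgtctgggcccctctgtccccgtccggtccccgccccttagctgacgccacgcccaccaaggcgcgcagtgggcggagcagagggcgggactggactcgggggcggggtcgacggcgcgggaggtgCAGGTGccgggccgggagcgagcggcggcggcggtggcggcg
Nectin2: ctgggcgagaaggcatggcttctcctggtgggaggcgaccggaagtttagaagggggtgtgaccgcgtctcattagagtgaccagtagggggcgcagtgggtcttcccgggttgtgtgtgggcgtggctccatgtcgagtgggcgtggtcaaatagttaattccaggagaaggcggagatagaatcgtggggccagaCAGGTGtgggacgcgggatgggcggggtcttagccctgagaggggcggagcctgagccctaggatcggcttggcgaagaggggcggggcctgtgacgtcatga
Nectin3: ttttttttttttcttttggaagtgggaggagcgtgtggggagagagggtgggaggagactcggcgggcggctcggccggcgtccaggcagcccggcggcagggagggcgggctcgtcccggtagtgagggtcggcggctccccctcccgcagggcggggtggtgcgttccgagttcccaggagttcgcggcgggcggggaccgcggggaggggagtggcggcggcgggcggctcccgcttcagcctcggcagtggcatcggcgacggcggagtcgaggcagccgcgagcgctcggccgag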

How the data were processed

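The 47 libraries of polyA RNA were quantified by the authors with nf-core/rnaseq 3.18.0, and they deposited salmon's estimated counts per transcript in 3 tables, not scaled to depth or length. Estimated counts were summed per gene and rounded here. Positions and transcript lengths came from GENCODE vM21 on GRCm38; the deposited files do not name an annotation. The library totals set the precision, and the floor of 3 counts per library covers counting error only.

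Each comparison used the 2 groups compared in edgeR 4.0.16 (R 4.3.3): filterByExpr, TMM scaling, quasi-likelihood fits, and p adjusted after Benjamini and Hochberg across the genes tested. Interactions were tested the same way on 4 groups. Alternatives were DESeq2 1.42.0, RLE scaling, no low-count filter, 1 fit of all 47 libraries, the replicate number as a block and each library left out in turn; leaving out both libraries numbered 2 of the myotube-enriched fraction was chosen after seeing the data. The code was tried on simulated data. Scripts ran in Python 3.11.

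Named genes are the 8 members in every comparison, the induced genes, list genes with an adjusted p under 0.05, a fold change over 2 and a mean of at least 5 CPM (at most 4 per list and comparison), and the 3 genes most like each member with a group mean of at least 5 CPM. Afdn in iCdh23 cells falls outside this rule and was chosen after its values were seen, as were the transcripts of Nectin2 and Cadm1 described. The members and lists were chosen with earlier results of these data known.

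The replicate numbers come from the labels. Deviations from the group means of same-numbered libraries correlated over 0.1 in every pair in iMcam cells (0.315 to 0.474) and between the fractions without dox (0.178 to 0.494, where 1 of 3 numbers correlated best with its own).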

Additional observations from a re-analysis of the deposited data

Results flagged for a closer look

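The dox effect on several members differed between times or lines by the test of the difference itself, edgeR's quasi-likelihood test of the interaction with Benjamini-Hochberg adjustment. In all, 19 such differences passed over 7 interactions, 17 without the sparse Nectin4, while 0 to 43.4% of all genes passed in each. Values are differences of log2 fold changes.

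Seeding number and medium differ between 24 h and 0 h in the iMyoD1 line. There, the dox effect was higher at 24 h for Cadm4 (1.25, adjusted p = 2.56e-06), Nectin1 (0.64, adjusted p = 0.00575) and Nectin2 (0.43, adjusted p = 0.00297). It was lower at 24 h for Cadm1 (-1.06, adjusted p = 2.03e-08), Cadm3 (-0.91, adjusted p = 0.00136) and Nectin3 (-0.31, adjusted p = 0.00560). These 6 passed in every alternative fit.

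Between 48 h and 24 h, where batch and time cannot be told apart, the dox effect was higher at 48 h for Cadm1 (1.81, adjusted p = 9.90e-10). It was lower for Nectin1 (-1.02, adjusted p = 0.000105), Nectin2 (-0.45, adjusted p = 0.00659), Nectin3 (-0.27, adjusted p = 0.0417) and Nectin4 (-3.89, adjusted p = 0.00272). The Nectin3 difference ended without replicate 2 of the 48 h dox libraries, replicate 1 or 3 of those without dox, any of the 24 h dox libraries, or replicate 2 or 3 of those without dox, with values from -0.29 to -0.23 and adjusted p from 0.0530 to 0.102, and it ended without the low-count filter (-0.30, adjusted p = 0.0750). Nectin4 held 3, 4 and 2 counts at 48 h without dox and 1, 1 and 0 with dox, so its fitted value depends on the prior count and is no bound; it entered only through the 24 h groups, where it is higher, and is no support.

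Between the iCdh23 and iMyoD1 lines at 48 h, the dox effect was higher in iCdh23 cells for Cadm4 (0.63, adjusted p = 0.0417), Nectin1 (1.10, adjusted p = 0.00102), Nectin2 (0.72, adjusted p = 0.000828) and Nectin4 (4.39, adjusted p = 0.00105), the last again against those few counts. It was lower for Cadm1 (-1.38, adjusted p = 0.00146) and Nectin3 (-0.40, adjusted p = 0.0422). The Nectin3 difference held in 3 of 16 alternatives and that of Cadm4 in 7 of 16. Nectin4 was in no test of its own in iMyoD1 cells at 48 h and entered here through the iCdh23 dox group, where it is higher, so its value is no support. Myotube marker sums fell further in iCdh23 cells, and their part in these differences was not tested.

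Between the iMcam and iCdh23 lines, the dox effect was lower in iMcam cells for Nectin1 (-1.004, adjusted p = 0.0497) and Nectin2 (-0.52, adjusted p = 0.0218). The Nectin1 difference ended in 9 of 12 fits that left out a library (-1.07 to -0.76, adjusted p = 0.0575 to 0.115); it held without replicate 1 of the iMcam dox libraries, replicate 2 of those without dox or replicate 3 of the iCdh23 libraries without dox. That of Nectin2 ended without replicate 3 of the iMcam dox libraries (-0.45, adjusted p = 0.0562) or replicate 1 or 3 of the iCdh23 dox libraries (-0.50 for each, adjusted p = 0.0527 and 0.0607), and without the low-count filter (-0.52, adjusted p = 0.0521).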

How the results depend on the processing

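Of 61 calls on members, 47 passed in every alternative, 14 did not pass in some and 0 changed direction; 65 values did not pass, of which 22 changed sign and 9 passed in some alternative. The counts of passing members stayed within 1.5 times in every fit by DESeq2 and with RLE scaling, which moved the median log2 of all genes by at most 0.0562. A fit of all 47 libraries passed 2 members at 0 h (4 otherwise). For the interaction of iMcam and iCdh23 (2 members), no low-count filter passed 1 and the replicate block 4; the cause was not tested. The block changed the calls of Nectin2 in whole 120 h cultures, of Nectin4 at 24 h, of Cadm1 between 24 h and 48 h, in iCdh23 (-0.40, adjusted p = 0.0428) and in iMcam cells (0.57, adjusted p = 0.00962), of Nectin3 in the myoblast-enriched fraction (-0.61, adjusted p = 0.0120), and in interactions of Nectin3 between iCdh23 and iMyoD1 (-0.41, adjusted p = 0.0571) and of Cadm1 and Cadm4 between iMcam and iCdh23 (0.93 and -0.66, adjusted p = 0.0105 and 0.0443), and no other call. Elsewhere the rule for pairing, a correlation over 0.1 for every number and more than 2 pairs, was not met, though in iCdh23 cells the correlations were 0.0821 to 0.216, each library lying closest to its own number, and in the myoblast-enriched fraction 0.375 and 0.525 over 2 pairs.

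Leaving out each library in turn, passing members ran from 2 to 5 in whole 120 h cultures, from 0 to 2 in the myoblast-enriched fraction, from 0 to 1 for the interaction of 120 h and 48 h and from 0 to 3 for iMcam and iCdh23. Leaving out both libraries numbered 2 of the myotube-enriched fraction, chosen after seeing the data, passed 0 members in each of its 4 comparisons.

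Counts of all genes past the adjusted p moved over 1.5 times as follows. With all 47 libraries in 1 fit, 828 against 5122 passed at 0 h, 4782 against 8844 at 24 h and 4803 against 7846 at 48 h. In the myoblast-enriched fraction, 619 passed, and 1569 by DESeq2, 1981 without the filter, 4051 with the replicate block and 0 to 14 without replicate 2 or 3 with dox or replicate 3 without dox. In the myotube-enriched fraction 0 passed, and 2 by DESeq2, 1 without the filter and 4 with all libraries. Between fractions without dox 83 passed, and 764 by DESeq2, 461 without the filter, 1637 with all libraries, 676 with the block, 47 without both libraries numbered 2 and 0 to 249 with a library left out; with dox 0, and 9 by DESeq2 and 243 with all libraries. For the interaction of dox and fraction 0 passed, and 2 by DESeq2. For iMcam against iMyoD1 929 passed, and 1516 by DESeq2 and 386 to 1764 with a library left out; for iMcam against iCdh23 1548, and 917 without replicate 2 of the iCdh23 dox libraries.

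Depth limits Cadm2 and Nectin4, whose differences were mostly not detectable. Highest groups stayed the same for 8 members with RLE scaling and for 6 per length, Cadm2 and Nectin4 being the exceptions. With 2 dox libraries, the myoblast-enriched fraction leaves 1 dox library in some fits, assumed to vary like the rest.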
